A study of Mus musculus with 15 samples.

Results

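The developing mouse lens was followed from E10.5, when the lens vesicle has just formed, to E16.5, when fibre cells fill it, by comparing the 3 E16.5 lens libraries with the 3 E10.5 lens libraries, which are 6 of the 15 RNA-seq libraries of the study. The libraries were chosen by their labels alone, and the comparison was read across all genes. The lenses were micro-dissected from wild-type C57BL/6NTac embryos, with 17 lenses pooled in each E16.5 library and 50 in each E10.5 library. The other 9 libraries, 3 each of E14.5 lens (18 lenses pooled), E12.5 lens (29 lenses pooled) and whole embryo bodies, were used to place a gene on the course and to estimate the spread. The labels call the 3 libraries of a stage biological replicates, each a pool of many lenses, so the spread printed here is that between pools and not between single embryos. Foxe3, a transcription factor largely restricted to the lens, had 385 ± 34.5 FPKM at E16.5 and 302 ± 28.4 FPKM at E10.5 (SD, n = 3 each), against a mean of 0.397 FPKM in whole bodies, so both stages carried the labelled tissue. The unit is FPKM, a level per length of transcript, summed over the assembled transcripts of a gene.

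The lens forms when the surface ectoderm over the optic vesicle thickens to a placode, sinks in and closes to a vesicle. Cells at the back of the vesicle then leave the cell cycle and elongate to primary fibres, while cells at the front stay a dividing epithelium that adds secondary fibres at its margin. Fibre cells fill with crystallins, build a membrane of gap junctions and water channels and a beaded filament cytoskeleton, and break down their nuclei and organelles, which makes the tissue transparent. The factors PAX6, SIX3, FOXE3, PROX1, c-MAF, SOX1 and HSF4 are known regulators of these steps in the mouse, and many of the genes are linked to cataract.

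The lens at E16.5 differed from that at E10.5 in most of the genes measured. Of 14532 genes tested with limma, 10742 passed a Benjamini-Hochberg adjusted p of 0.05, which is 73.9% of all genes tested. These were 5404 higher at E16.5 (37.2%) and 5338 lower (36.7%), and 3790 genes were not called. At least a 2-fold change as well was met by 2493 higher genes (17.2%) and 2650 lower genes (18.2%). Past 16-fold, 235 genes were higher and 99 lower, and past 256-fold 28 were higher and 3 lower, so the far end of the range was taken by genes that were higher at E16.5. In all, 96 genes had at least 10 FPKM in all 3 E16.5 libraries and below 1 FPKM in all 3 E10.5 libraries, and 73 genes the reverse.

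The 95% confidence interval of the log2 difference lay within 0.5 on either side of 0 for 2935 genes (20.2% of those tested), and 711 of these were called all the same. Libraries of a stage correlated across genes on the log2(FPKM + 1) scale with Pearson's r of 0.984 to 0.991, against 0.781 to 0.805 between the stages (genes are not independent replicates). The deposited scaling set the genes outside the crystallins to unequal totals, with a summed FPKM of 1015762 to 1083394 at E16.5 against 712152 to 766297 at E10.5. With the crystallins left out and the other genes scaled to equal totals, the median difference over all genes moved by -0.38 on the log2 scale, and 3431 genes were called higher and 7767 lower (30.6% of the calls higher, against 50.3% as deposited). Counts under that scaling are given beside those of the pathway groups with modest differences. The background for all group counts as deposited is the share of all genes called, 37.2% higher and 36.7% lower. By another measure, 3 libraries against 3 did not overlap for 5520 genes that were higher at E16.5 (38.0%) and 5416 that were lower (37.3%).

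**Figure D1:**
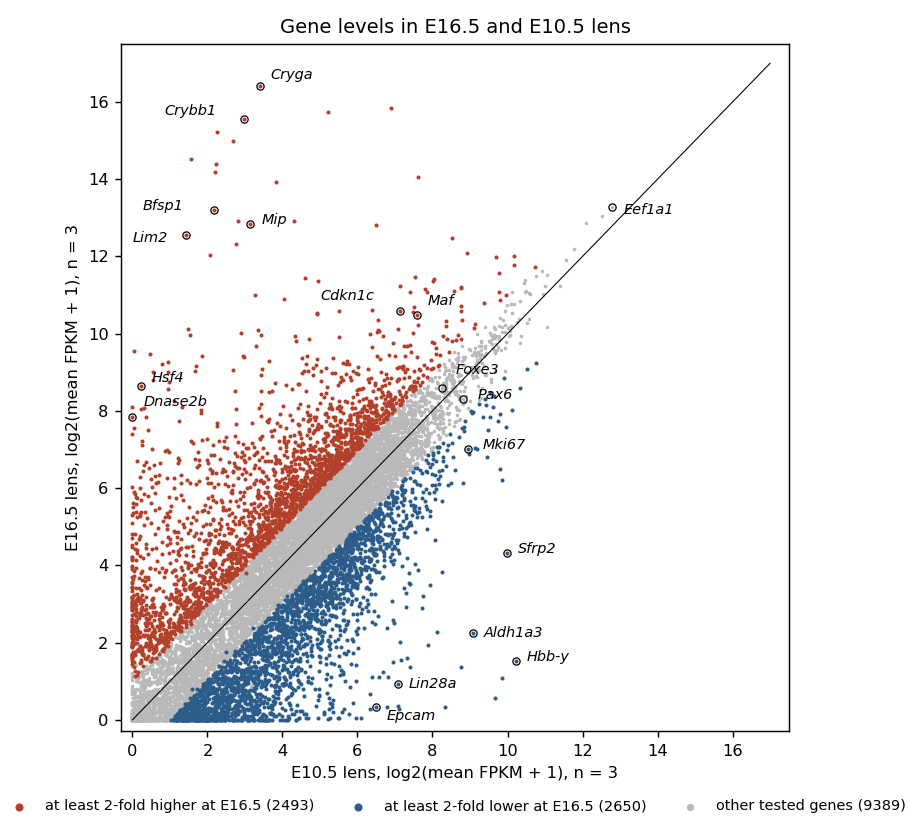
Mean level of each of the 14532 genes tested in E16.5 lens (vertical axis) and E10.5 lens (horizontal axis), as log2(mean FPKM + 1) over 3 libraries each. Red points are the 2493 genes called at least 2-fold higher at E16.5, blue points the 2650 called at least 2-fold lower, and the line marks equal levels, with Cryga and Crybb1 far above it and Hbb-y and Aldh1a3 far below.

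The crystallins, the soluble proteins that give the lens its refractive power, made the largest rise in level. All 14 crystallins that could be tested were called higher at E16.5, 6 alpha and beta and 8 gamma crystallins, with median log2 differences of 10.49 and 11.40, beside a median of -0.01 over all genes. The beta crystallin Crybb1 (chr5:112255815-112269585, mm10) had 46792, 56086 and 41902 FPKM in the E16.5 libraries, against 5.96, 6.81 and 7.86 FPKM at E10.5. Its log2 difference was 12.58 ± 0.20 (SE, on the log2(FPKM + 1) scale; adjusted p = 1.85e-15). The stages were far apart, and in whole bodies the gene averaged 0.0267 FPKM. All log2 differences are E16.5 minus E10.5 on this scale, which understates the change of genes with low levels.

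Cryga had 82097, 98586 and 78784 FPKM at E16.5, against 7.69, 9.70 and 11.2 FPKM at E10.5, and a log2 difference of 13.01 ± 0.26 (adjusted p = 1.13e-14), the greatest of all genes tested. Of the other gamma crystallins, Crygb, Crygd and Crygf rose by 12.96, 12.30 and 12.97. These gamma crystallin genes lie near each other on chromosome 1 and are near-identical copies, so their separate levels are uncertain, while the sum over all 8 gamma crystallins of 225280 to 300150 FPKM at E16.5 against 77.25 to 78.49 FPKM at E10.5 is not touched by a split of reads among them. Cryge and Crybb3 already stood at 36.3 ± 1.56 and 117 ± 30.6 FPKM (SD, n = 3) at E10.5, above the other gamma and beta crystallins tested.

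Cryab, the small heat shock protein alpha B crystallin that is made in many tissues, rose less, to 7552, 7691 and 6185 FPKM at E16.5, against 105, 81.3 and 83.7 FPKM at E10.5 (log2 difference 6.30 ± 0.14, adjusted p = 2.93e-14). Crybb2, which in the mouse is mainly a crystallin of the lens after birth, had the smallest difference of the group, with 68.7, 66.4 and 31.6 FPKM at E16.5 against 1.73, 1.45 and 1.17 FPKM at E10.5 (4.46 ± 0.25, adjusted p = 5.13e-10). In both genes every E16.5 library lay above every E10.5 library. Crygs, the crystallin of later secondary fibres, reached 1113 ± 280 FPKM at E16.5 against 1.78 ± 0.112 FPKM at E10.5 and had covered 77.2% of its log2 difference by E14.5, where Crybb1 had covered 94.8%.

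Cryaa (chr17:31677807-31681733), the chaperone alpha A crystallin, and Cryba1 (chr11:77718615-77725283) were listed at 0 in E16.5 replicates 1 and 2, beside 140912 and 101407 FPKM in replicate 3. At E10.5 Cryaa had 104, 63.7 and 71.7 FPKM and Cryba1 had 23.95, 20.01 and 22.45 FPKM. A 0 next to a value this high in a table without counts can be a failed estimate, and neither gene was tested. Nufip2 showed the same pattern and was also not tested. Cryaa was also listed at 0 in E14.5 replicates 2 and 3.

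As listed, the 16 crystallins made up 32.0% ± 4.76 of the summed FPKM at E16.5 (28.2, 30.4 and 37.3% in the 3 libraries) and 0.0542% ± 0.0112 at E10.5 (SD, n = 3 each), with 10.48% ± 2.89 at E12.5 and 26.9% ± 2.78 at E14.5 between them. An exact two-sided permutation test over the 6 libraries gave p = 0.1, the smallest value that 3 against 3 allows. Without Cryaa and Cryba1 the difference between the stage means was 28.3 percentage points, against 31.9 with them. Over the same course, 178, 140 and 78 genes held the upper 50% of the summed FPKM in the E16.5 libraries, against 1106, 1081 and 1092 genes in the E10.5 libraries. The lowest of these, at E16.5, belonged to replicate 3, which lists Cryaa and Cryba1.

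**Figure D2:**
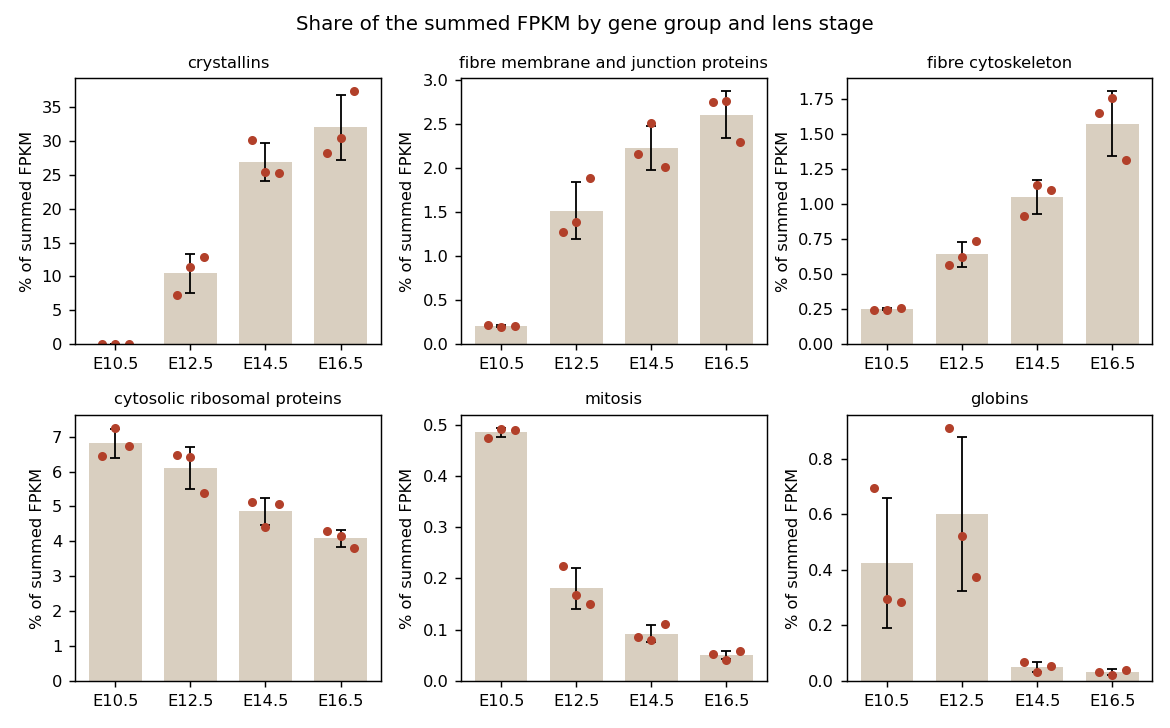
Share of the summed FPKM of each library taken by 6 gene groups (vertical axes, %), for 3 lens libraries at each of 4 stages. Bars are means, whiskers SD and points libraries: crystallins hold 32.0% at E16.5 against 0.0542% at E10.5, fibre membrane and cytoskeleton genes grow with them, and mitosis genes and globins shrink.

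The promoter windows of 5 chosen genes are examples and do not stand for all genes that rose or fell. The windows below run from 250 bases before to 50 bases after the RefSeq transcript start (GRCm38.p6, the assembly behind mm10), 5′ to 3′ on the strand of the gene, with every CG dinucleotide in capitals. They are shown because CG dinucleotides, the sites of DNA methylation, were few at many genes with a strong rise, as counted over all genes further on. They belong to 3 genes that rose strongly (Crybb1, plus strand, chr5:112255570-112255869; Bfsp1, minus strand, chr2:143863124-143863423; Lim2, plus strand, chr7:43429849-43430148) and 2 that fell, from the cell cycle and from early embryonic genes (Mki67, minus strand, chr7:135716330-135716629; Lin28a, minus strand, chr4:134018767-134019066).
Crybb1: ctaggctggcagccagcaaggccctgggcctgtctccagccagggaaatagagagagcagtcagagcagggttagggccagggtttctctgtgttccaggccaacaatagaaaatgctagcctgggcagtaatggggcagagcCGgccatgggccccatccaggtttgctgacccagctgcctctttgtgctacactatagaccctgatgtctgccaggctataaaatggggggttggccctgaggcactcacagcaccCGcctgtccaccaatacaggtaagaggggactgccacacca
Bfsp1: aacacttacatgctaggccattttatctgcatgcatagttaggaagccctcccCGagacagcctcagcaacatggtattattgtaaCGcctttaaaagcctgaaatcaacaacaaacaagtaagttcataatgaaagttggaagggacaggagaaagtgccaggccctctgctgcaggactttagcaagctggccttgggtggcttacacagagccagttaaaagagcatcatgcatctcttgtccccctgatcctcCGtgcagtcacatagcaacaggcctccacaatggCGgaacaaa
Lim2: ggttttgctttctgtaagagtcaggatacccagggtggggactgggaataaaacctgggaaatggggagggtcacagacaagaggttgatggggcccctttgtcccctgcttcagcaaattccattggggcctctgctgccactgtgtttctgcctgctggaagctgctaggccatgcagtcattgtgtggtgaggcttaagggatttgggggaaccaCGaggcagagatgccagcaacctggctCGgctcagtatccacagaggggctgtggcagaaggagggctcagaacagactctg
Mki67: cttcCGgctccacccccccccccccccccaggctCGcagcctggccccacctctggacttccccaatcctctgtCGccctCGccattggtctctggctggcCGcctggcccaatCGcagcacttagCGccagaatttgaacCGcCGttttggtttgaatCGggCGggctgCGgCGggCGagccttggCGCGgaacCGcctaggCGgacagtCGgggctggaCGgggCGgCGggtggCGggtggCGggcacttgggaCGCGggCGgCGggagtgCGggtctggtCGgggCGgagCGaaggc
Lin28a: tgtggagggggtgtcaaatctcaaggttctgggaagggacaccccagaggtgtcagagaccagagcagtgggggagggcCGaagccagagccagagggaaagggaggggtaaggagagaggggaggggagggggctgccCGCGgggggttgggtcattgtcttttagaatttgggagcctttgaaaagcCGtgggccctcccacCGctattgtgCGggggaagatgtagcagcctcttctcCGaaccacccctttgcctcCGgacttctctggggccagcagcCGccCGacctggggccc
Crybb1 and Lim2 hold 2 CG dinucleotides each and Bfsp1 holds 4, against 32 in Mki67 and 10 in Lin28a. Genes at least 16-fold higher had a median of 12.5 (quartiles 4 and 24.75). Crybb1, Lim2 and Bfsp1 lie at or under the lower of these quartiles. The medians were 20 for genes at least 2-fold higher and 19 for those at least 2-fold lower, whose quartiles were 10 and 27. Mki67 lies above the upper of these and Lin28a at the lower, under the median of 21 for all genes tested. The Crybb1 window has TATAAA 30 to 25 bases before the start and TGCTGAC, the core of the motif bound by MAF factors, 84 to 78 bases before it, both on the gene's strand.

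Of 17 genes tested in a list for the fibre cell membrane and junctions, 16 were called higher at E16.5 and 1 lower (median log2 difference 6.04). The list also holds fibre genes of other kinds, such as the enzyme gene Pgam2, the galectin relative Grifin, the RNA-binding Caprin2 and the actin-capping Tmod1. Some members, among them Pgam2, Caprin2 and Tmod1, are counted again in other lists. Mip (chr10:128225838-128231812), the water channel aquaporin 0, had 6870, 8358 and 6830 FPKM at E16.5, against 7.88, 8.09 and 7.52 FPKM at E10.5 (9.70 ± 0.19, adjusted p = 9.26e-15). Lim2 (chr7:43427670-43435996), a membrane protein of fibre cells, had 5963, 6604 and 5465 FPKM at E16.5, against 2.06, 1.56 and 1.52 FPKM at E10.5 (11.12 ± 0.16, adjusted p = 1.25e-15). Neither gene had overlapping stages, and Lim2 was listed at 0 in whole bodies. The uncharacterised gene Gm26847, with 7697 ± 745 FPKM at E16.5 against 6.07 ± 1.22 FPKM at E10.5, overlaps Mip on the other strand, and reads of the pair cannot be told apart where strand use is not given.

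Gap junction genes of fibres and of the epithelium moved in opposite directions. Gja3, connexin 46 of fibre cells, had 2034 FPKM at E16.5 against 8.66 FPKM at E10.5 (7.75). Gja1, connexin 43 of the epithelium, fell to 106, 72.0 and 78.8 FPKM at E16.5, against 267, 296 and 303 FPKM at E10.5 (-1.76 ± 0.24, adjusted p = 7.67e-06), the only gene of the group that was lower.

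Other members of the group were found almost only in the later lens. Lctl, a lens member of the klotho family, had 168 FPKM at E16.5 and was listed at 0 in all 3 E10.5 libraries. Grifin, a galectin-related lens protein, had 432 FPKM against 0.967 FPKM (7.78), and Pgam2, the muscle form of phosphoglycerate mutase, had 514 ± 69.0 FPKM against 0.927 ± 0.490 FPKM (8.08 ± 0.23, adjusted p = 4.01e-13). Slc2a1, the glucose transporter GLUT1, rose to 992 ± 54.8 FPKM against 407 ± 34.9 FPKM and so was abundant at both stages (1.28 ± 0.09, adjusted p = 5.92e-09).

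The cytoskeleton list gave 13 genes higher, 2 lower and 1 not called of 16, with a median log2 difference of 3.33. Bfsp1 and Bfsp2, filensin and phakinin of the beaded filament, led it. Bfsp1 had 9344, 11291 and 7753 FPKM at E16.5, against 3.16, 3.79 and 3.68 FPKM at E10.5 (11.01 ± 0.20, adjusted p = 4.51e-15), and its partner Bfsp2 had 4221, 4938 and 3517 FPKM against 2.24, 3.84 and 3.59 FPKM (9.97 ± 0.20, adjusted p = 1.17e-14). Every E16.5 library lay far above every E10.5 library in both genes. Genes of the spectrin skeleton under the membrane rose by less, Sptan1 by 2.52, Sptbn1 by 3.22 and the linker Ank2 by 5.08 on the log2 scale.

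Vim, the intermediate filament vimentin, was at 2328 FPKM at E16.5 against 429 FPKM at E10.5 (2.44). Nes, the intermediate filament nestin of dividing progenitors, fell to 73.6, 70.7 and 108 FPKM at E16.5, against 216, 238 and 238 FPKM at E10.5 (-1.47 ± 0.12, adjusted p = 4.68e-08). Tpm1, a tropomyosin, fell to 66.4 ± 14.2 FPKM against 253 ± 9.55 FPKM (-1.94 ± 0.17, adjusted p = 6.16e-08), while Tmod1, which caps the ends of actin filaments, rose to 122 ± 13.1 FPKM against 0.980 ± 0.877 FPKM (6.04 ± 0.25, adjusted p = 1.86e-11). Nes and Tpm1 were the only 2 of the list called lower as deposited.

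Among transcription factors of fibre cells, 14 of 19 tested were called higher, 1 lower and 4 neither, with a median log2 difference of 1.12, against 12 higher and 5 lower with the crystallins left out of the scaling. Maf, which encodes c-MAF, the activator of crystallin genes, had 1290, 1589 and 1373 FPKM at E16.5, against 218, 170 and 185 FPKM at E10.5 (2.89 ± 0.14, adjusted p = 1.31e-10). Prox1, needed in the mouse for fibre elongation, had 1067, 1151 and 1139 FPKM, against 159, 125 and 121 FPKM (3.05 ± 0.13, adjusted p = 2.89e-11). Both factors were thus well above background in the E10.5 libraries, when the fibre proteins were near 0.

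Hsf4, a heat shock factor whose mutation causes cataract, was the most changed factor. It had 397, 462 and 347 FPKM at E16.5, against 0.180, 0.120 and 0.220 FPKM at E10.5 (8.42 ± 0.19, adjusted p = 4.79e-14). Its relatives did not follow: Hsf2 fell to 18.5 ± 2.88 FPKM against 27.6 ± 4.34 FPKM (-0.55 ± 0.12, adjusted p = 6.89e-04), and Hsf1 was not called, with 52.0 ± 2.31 FPKM against 56.9 ± 4.79 FPKM (-0.13 ± 0.08, adjusted p = 0.170). The Hsf4 transcripts share an assembled locus with Nol3, so a part of its level may belong to that gene. Sox1, a further crystallin regulator, rose to 362 ± 32.1 FPKM against 23.5 ± 3.65 FPKM (3.89 ± 0.16, adjusted p = 1.95e-11), and Mafa to 56.8 ± 9.61 FPKM against 0.0533 ± 0.0551 FPKM (5.76 ± 0.21, adjusted p = 6.78e-12).

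The factors of the placode and epithelium mostly went the other way, with 15 of 20 called lower, 4 higher and 1 neither (median -1.66; 16 lower and 2 higher with the crystallins left out of the scaling). Otx2, a forebrain and eye field factor, had 0, 0 and 0.110 FPKM at E16.5, against 29.1, 56.4 and 44.9 FPKM at E10.5 (-5.38 ± 0.30, adjusted p = 5.34e-10), and Sox11 had 6.11, 5.74 and 7.77 FPKM against 151, 151 and 163 FPKM (-4.38 ± 0.19, adjusted p = 4.32e-11). Sox2, which acts with PAX6 in the placode, was at 16.3 FPKM against 91.3 FPKM (-2.41). All of these lay far outside the spread between libraries.

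Pax6, which the lens epithelium keeps, fell to 330, 303 and 322 FPKM at E16.5, against 455, 450 and 444 FPKM at E10.5 (-0.50 ± 0.06, adjusted p = 1.66e-06), a small difference beside a very small spread. Pitx3, the gene lost in the mouse aphakia mutant, rose to 176 ± 9.18 FPKM against 67.9 ± 7.59 FPKM (1.36 ± 0.14, adjusted p = 3.42e-07). Foxe3, the epithelial forkhead factor, had 375, 356 and 423 FPKM at E16.5 against 321, 315 and 269 FPKM at E10.5, a log2 difference of 0.35 ± 0.13 (adjusted p = 0.0263) that turned to -0.13 with the crystallins left out of the scaling and to -0.21 with quantile normalization. It missed the threshold without E16.5 replicate 3 (0.28) or E10.5 replicate 3 (0.27) and with a pseudocount of 0.1 or median ratio scaling. Six3 was not called (118 FPKM against 131 FPKM, -0.15, adjusted p = 0.158). The direction for Foxe3 therefore depends on the scaling, and it and Pax6 stayed among the abundant factors at both stages.

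RNA-binding proteins with a known part in lens cells split into 9 called higher (64.3%) and 5 lower (35.7%) of 14. The lower share was near the 36.7% of all genes. The median log2 difference was 0.50. With the crystallins left out of the scaling, 6 were higher and 5 lower, with a median of 0.03. The TUDOR protein gene Tdrd7, linked to cataract in humans and mice, had 2548, 2981 and 2395 FPKM at E16.5, against 28.6, 29.3 and 32.0 FPKM at E10.5 (6.41 ± 0.18, adjusted p = 3.54e-13). Caprin2, which in the mouse lens bears on the shape of fibre cells, had 2749, 3093 and 2461 FPKM against 27.1, 22.1 and 21.1 FPKM (6.83 ± 0.18, adjusted p = 2.46e-13). Rbm24, whose loss disturbs eye development in the mouse, rose to 550 ± 17.6 FPKM against 27.2 ± 6.66 FPKM (4.31). Celf1, whose loss causes cataract in the mouse, rose to 1293 FPKM against 330 FPKM (1.97).

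Rbms1, Rbms3 and the splicing regulator Rbfox2 were the members that fell by more than 2-fold, with log2 differences of -2.56 ± 0.17, -2.42 ± 0.24 and -2.01 ± 0.11. General splicing factors fell as well: of 39 genes with symbols beginning Srsf, Hnrnp or Sf3, none was called higher, 31 were lower and 8 neither (median -0.53), and all 39 were lower with the crystallins left out of the scaling. Hnrnpa1 stood at 542 ± 64.3 FPKM against 1458 ± 62.1 FPKM (-1.43 ± 0.10) and Srsf7 at 121 ± 7.83 FPKM against 285 ± 15.1 FPKM (-1.23 ± 0.10).

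Oncofetal and heterochronic genes, which mark early embryonic cells, were called lower in 10 of 13 and higher in 3 (median -1.36; 10 lower and 2 higher with the crystallins left out of the scaling). Lin28a, which blocks the let-7 microRNAs, fell to 0.690, 1.13 and 0.840 FPKM at E16.5, against 125, 130 and 146 FPKM at E10.5 (-6.16 ± 0.17, adjusted p = 3.54e-13). Its relative Lin28b fell less, to 28.0, 32.4 and 34.3 FPKM against 102, 100 and 99.1 FPKM (-1.65 ± 0.09, adjusted p = 2.44e-10), and still stood at 57.7 FPKM at E14.5. Trim71, a let-7 target, fell to 0.210 ± 0.105 FPKM against 48.5 ± 6.31 FPKM (-5.35 ± 0.18, adjusted p = 3.46e-12), and Sall4 to 1.70 ± 0.666 FPKM against 35.1 ± 2.34 FPKM (-3.77 ± 0.16, adjusted p = 2.53e-11). Mycn rose the most of the 3 higher genes, with 162, 181 and 170 FPKM at E16.5 against 47.5, 47.6 and 41.9 FPKM at E10.5 (1.88 ± 0.13, adjusted p = 5.02e-09).

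Genes for the breakdown of nuclei and organelles gave 12 higher, 6 lower and 2 not called of 20 (median 1.01; 12 and 8 with the crystallins left out of the scaling). Dnase2b (chr3:146580985-146615596), the acid DNase that clears fibre nuclei in the mouse, had 226, 275 and 183 FPKM at E16.5 and was listed at 0 in all 3 E10.5 libraries. Pla2g16, a phospholipase that acts in organelle breakdown in the mouse and zebrafish lens, had 974, 1171 and 945 FPKM, against 6.00, 7.28 and 5.83 FPKM (7.13 ± 0.15, adjusted p = 2.91e-14). The stages stood well apart in both.

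Capn3, a calpain protease made in lens and muscle, had 7788 ± 693 FPKM against 18.6 ± 3.32 FPKM (8.64 ± 0.22, adjusted p = 1.34e-13); its transcripts share an assembled locus with Ganc. Casp6, a caspase protease, fell to 7.15 FPKM against 27.3 FPKM (-1.80). The nuclear lamina gene Lmnb1 fell to 69.6 ± 8.53 FPKM against 359 ± 37.3 FPKM (-2.35 ± 0.12, adjusted p = 3.06e-10), and Lmnb2 by 1.32 on the log2 scale. The members that fell also included Dnase2a, a lysosomal DNase, and Ube2c, a mitotic ubiquitin-conjugating enzyme.

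Autophagy and lysosome genes were called higher in 15, lower in 2 and neither in 3 of 20 (median 1.18, or 13 and 5 with the crystallins left out of the scaling). Optn, the autophagy receptor optineurin, had 145, 163 and 131 FPKM at E16.5, against 7.11, 4.73 and 6.45 FPKM at E10.5 (4.39 ± 0.14, adjusted p = 1.30e-12). Wipi1, which binds the forming autophagosome, rose to 241 ± 13.6 FPKM against 34.7 ± 4.17 FPKM (2.77 ± 0.13, adjusted p = 6.71e-11), and Tfeb, the lysosome regulator, to 13.7 ± 3.95 FPKM against 1.16 ± 0.563 FPKM (2.76 ± 0.25, adjusted p = 1.15e-07). Ulk1, the kinase that starts autophagy, fell to 42.5 ± 4.11 FPKM against 67.3 ± 5.51 FPKM (-0.65 ± 0.10, adjusted p = 2.23e-05). Of the 17 subunits of the vacuolar proton pump, 16 were called higher (median 0.88; 10 higher and 1 lower with the crystallins left out of the scaling), and of 36 proteasome subunits 26 higher and 2 lower (13 and 10 under that scaling).

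Cell division genes fell as a block. All 20 DNA replication genes tested and all 22 mitosis genes were called lower, with median log2 differences of -2.11 and -2.27 beside a background of 36.7% of genes called lower. Mki67, the proliferation marker, had 119, 112 and 151 FPKM at E16.5, against 446, 476 and 553 FPKM at E10.5 (-1.95 ± 0.16, adjusted p = 2.99e-08). Rrm2, a subunit of ribonucleotide reductase, had 29.7, 25.3 and 33.4 FPKM, against 217, 237 and 231 FPKM (-2.92 ± 0.13, adjusted p = 3.78e-11). The stages did not overlap for either gene, and both were still well above the floor at E16.5. In pooled tissue, fewer dividing cells and less RNA per cell cannot be told apart, and the same holds for every gene of one cell type below.

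The mitosis list moved within a narrow range, from -1.95 for Mki67 to -2.80 for the kinesin Kif20a, and its sum was 650 to 941 FPKM at E16.5 against 3383 to 3765 FPKM at E10.5. In the replication list, Orc1 of the origin complex fell the most (-3.27 ± 0.21) and the flap nuclease Fen1, at 2.02 ± 0.503 FPKM against 4.47 ± 1.46 FPKM, the least (-0.83 ± 0.23, adjusted p = 3.81e-03). Mcm2 (-1.14) kept more of its level than Mcm3 to Mcm7 (-2.01 to -2.48), its partners in the replicative helicase.

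The inhibitors that hold cells out of the cycle rose in the majority, with 9 of 14 higher, 3 lower and 2 not called (median 0.88; also 9 and 3 with the crystallins left out of the scaling). Cdkn1c, p57, the main CDK inhibitor of fibre cells and an imprinted gene, had 1496, 1566 and 1579 FPKM at E16.5, against 134, 133 and 149 FPKM at E10.5 (3.47 ± 0.12, adjusted p = 3.57e-12). Cdkn1b, p27, rose to 72.9 FPKM against 44.6 FPKM (0.70), and Cdkn1a, p21, was low at both stages, with 0.800 ± 0.839 FPKM against 2.24 ± 0.226 FPKM. Ccng1, a target of p53 in many tissues, rose to 176 ± 27.0 FPKM against 27.6 ± 3.90 FPKM (2.63 ± 0.11, adjusted p = 3.81e-11), while its relative Ccng2 fell to 10.1 ± 0.777 FPKM against 32.0 ± 1.20 FPKM (-1.57 ± 0.20, adjusted p = 5.04e-06). Of the pocket proteins, Rb1 and Rbl2 rose by 0.95 and 1.63 and Rbl1 fell by 0.85.

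FGF signals drive fibre differentiation in the mouse, and here the genes of the pathway split, with 8 higher, 9 lower and 4 not called of 21, near the background in both directions (3 and 12 with the crystallins left out of the scaling). Fgfr3, a receptor of fibre cells, had 518, 572 and 500 FPKM at E16.5, against 3.11, 6.12 and 6.93 FPKM at E10.5 (6.43 ± 0.21, adjusted p = 1.82e-12). Fgfr2 was not called, at 124 FPKM against 121 FPKM (0.03), and Fgfr1 stood at 174 FPKM against 148 FPKM, a difference smaller than the shift between the scalings. Fgfr3 thus had the highest level of the 4 receptors at E16.5 and a low one at E10.5.

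The feedback inhibitors of the pathway moved apart. Spry1 had 66.0, 72.4 and 63.5 FPKM at E16.5, against 19.4, 18.2 and 15.8 FPKM at E10.5 (1.86 ± 0.11, adjusted p = 7.36e-10), and Spry2 rose by 0.93 ± 0.12. The ERK phosphatase gene Dusp6 fell to 23.5, 20.5 and 25.01 FPKM, against 130, 117 and 107 FPKM (-2.31 ± 0.15, adjusted p = 1.97e-09), and the target gene Etv4 fell by 1.92 while Etv5 rose by 0.70.

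BMP and TGF-beta genes gave 6 higher, 14 lower and 7 not called of 27 (median -0.34; 5 and 19 with the crystallins left out of the scaling). The ligand Tgfb2 rose to 126, 120 and 134 FPKM at E16.5, against 22.5, 32.7 and 24.6 FPKM at E10.5 (2.23 ± 0.12, adjusted p = 2.61e-10), while Tgfb1 fell to 2.27 ± 1.37 FPKM against 15.1 ± 1.01 FPKM (-2.41) and the receptor Tgfbr2 to 2.56 ± 0.732 FPKM against 30.9 ± 0.416 FPKM (-3.18 ± 0.27, adjusted p = 5.54e-08). Bmp4, which the optic vesicle gives to the placode in the mouse, fell to 1.80 ± 1.51 FPKM against 18.0 ± 6.81 FPKM (-2.85 ± 0.37, adjusted p = 5.27e-06). The target Id2 rose to 252 ± 32.2 FPKM against 68.7 ± 9.64 FPKM (1.86) and Id3 fell to 49.7 FPKM against 221 FPKM (-2.15).

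In the Notch list, 5 genes were higher, 11 lower and 6 not called of 22 (median -0.43; 5 and 15 with the crystallins left out of the scaling). Jag1, the ligand that new fibres show to the epithelium, had 532, 589 and 578 FPKM at E16.5, against 158, 141 and 142 FPKM at E10.5 (1.94 ± 0.10, adjusted p = 1.74e-10), and Lfng, which modifies Notch receptors, had 64.3 ± 6.93 FPKM against 7.81 ± 0.716 FPKM (2.89 ± 0.11, adjusted p = 8.43e-12). The other ligands Jag2 and Dll4 fell by 2.27 and 2.35. Dll4 and Notch4, which fell by 2.26, are known from endothelium, whose markers fell too, as given below.

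Wnt genes gave 7 higher, 17 lower and 2 not called of 26 (median -0.82; 7 and 18 with the crystallins left out of the scaling). The secreted Wnt antagonists did not move together. Sfrp2 fell to 14.01, 15.5 and 27.2 FPKM at E16.5, against 962, 1038 and 1057 FPKM at E10.5 (-5.74 ± 0.19, adjusted p = 2.21e-12), and Sfrp1 rose to 2280, 2634 and 2330 FPKM, against 130, 141 and 148 FPKM (4.10 ± 0.15, adjusted p = 4.54e-12). Neither had overlapping stages. Sfrp2 overlaps Gm26771 on the other strand. Sfrp2 is also one of the retina markers given below, and how much of its level came from that tissue was not tested. The antagonists Dkk1 and Dkk2 were called lower too (-2.93 and -2.61). Sfrp5 was also called but lay near the floor at both stages, with 0 FPKM at E16.5 against 0.34 FPKM at E10.5 (-0.38, adjusted p = 0.0497).

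Dkk3 rose with Sfrp1, to 2175 FPKM against 169 FPKM (3.68). The ligand Wnt7a reached 193 ± 25.1 FPKM against 3.82 ± 1.11 FPKM (5.35 ± 0.25, adjusted p = 7.98e-11), and its close relative Wnt7b 625 ± 39.6 FPKM against 11.4 ± 1.77 FPKM (5.66 ± 0.16, adjusted p = 5.44e-13). Wnt2b, a ligand of the optic cup margin and surface ectoderm, fell to 1.07 ± 0.374 FPKM against 34.5 ± 11.9 FPKM (-4.06 ± 0.45, adjusted p = 9.85e-07), Lef1, which turns on Wnt targets, to 1.35 FPKM against 20.4 FPKM (-3.19) and the coreceptor Lrp5 to 5.67 ± 1.49 FPKM against 62.5 ± 9.71 FPKM (-3.27 ± 0.25, adjusted p = 1.75e-08).

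The capsule, the basement membrane that surrounds the lens, was represented by 18 genes, of which 14 were called higher and 4 lower (median 1.70; 12 and 4 with the crystallins left out of the scaling). Of its main collagen chains, Col4a1 stood at 4342 FPKM against 487 FPKM (3.18), and Col4a2 at 2705, 2863 and 2689 FPKM against 213, 234 and 344 FPKM (3.41 ± 0.17, adjusted p = 1.28e-10). Nid1, nidogen, which ties laminin to collagen, had 2476, 2680 and 2787 FPKM at E16.5, against 262, 239 and 268 FPKM at E10.5 (3.37 ± 0.12, adjusted p = 6.67e-12). All 6 chains of collagen IV rose, by 2.53 to 3.56. Nid2, Agrn, Lamb2 and Col18a1, also parts of basement membranes, fell, the last to 49.8 ± 14.3 FPKM against 305 ± 85.2 FPKM (-2.60 ± 0.26, adjusted p = 2.87e-07).

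Adhesion genes gave 10 higher, 10 lower and 3 not called of 23, near the background in both directions, and 9 higher and 13 lower with the crystallins left out of the scaling. Cdh2, N-cadherin of fibre cells, rose to 859 FPKM against 261 FPKM (1.72), the laminin receptor subunit Itga6 to 430 ± 51.9 FPKM against 77.8 ± 7.58 FPKM (2.45 ± 0.14, adjusted p = 1.04e-09), and the integrin subunit Itgb5 to 326 ± 24.1 FPKM against 58.4 ± 3.88 FPKM (2.46 ± 0.11, adjusted p = 3.78e-11). Cdh1, E-cadherin of the epithelium, overlapped between the stages, with 219, 200 and 257 FPKM at E16.5 against 255, 264 and 292 FPKM at E10.5 (-0.27 ± 0.10, adjusted p = 0.0256), and the call was lost without E16.5 replicate 1 (-0.25) or 2 (-0.19) or without E10.5 replicate 3 (-0.21). Cdh3, P-cadherin, fell to 1.69, 1.01 and 0.740 FPKM against 75.1, 76.6 and 97.6 FPKM (-5.31 ± 0.24, adjusted p = 5.51e-11).

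Energy and redox genes rose in part. Of 45 genes for complexes I and III of the respiratory chain, 43 were called higher, none lower and 2 neither, with a median log2 difference of 0.91, against 29 higher and 4 lower with the crystallins left out of the scaling. Ndufa1 stood out with 473, 551 and 498 FPKM at E16.5 against 50.2, 68.4 and 66.2 FPKM at E10.5 (3.03 ± 0.11, adjusted p = 6.91e-12). Among 30 ATP synthase and cytochrome c oxidase subunits, 27 were higher and 3 lower (17 and 7 under that scaling).

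Glycolysis gave 9 higher, 5 lower and 5 not called of 19, and 6 higher and 10 lower with the crystallins left out of the scaling. Its lactate dehydrogenases both fell, Ldhb to 5.65, 4.17 and 4.31 FPKM at E16.5 against 98.8, 136 and 137 FPKM at E10.5 (-4.45 ± 0.21, adjusted p = 1.15e-10) and Ldha to 519 ± 22.1 FPKM against 971 ± 112 FPKM (-0.90 ± 0.10, adjusted p = 9.75e-07). Aldoc, the brain-type aldolase, rose to 111 ± 20.1 FPKM against 6.44 ± 0.497 FPKM (3.90 ± 0.16, adjusted p = 1.52e-11).

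The glutathione and antioxidant list was mixed, with 15 higher, 7 lower and 6 not called of 28 (11 and 13 with the crystallins left out of the scaling). Gss, glutathione synthetase, had 879, 970 and 844 FPKM at E16.5, against 21.2, 16.9 and 21.2 FPKM at E10.5 (5.44 ± 0.16, adjusted p = 5.32e-13), and Gstp1, a glutathione transferase, had 489, 550 and 431 FPKM against 25.6, 28.9 and 27.5 FPKM (4.11 ± 0.16, adjusted p = 1.12e-11). Hmox1, heme oxygenase, had 477, 413 and 238 FPKM against 17.48, 19.1 and 17.3 FPKM (4.26 ± 0.20, adjusted p = 6.88e-11) and had covered 20.2% of its log2 difference by E14.5. The E16.5 libraries spread widely for Hmox1 without reaching the E10.5 values. Slc7a11, the cystine importer that feeds glutathione synthesis, rose by 2.74 to 71.4 FPKM.

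Cholesterol synthesis genes were called higher in 15, lower in 2 and neither in 5 of 22, which became 7 and 7 with the crystallins left out of the scaling. Lss, lanosterol synthase, which is linked to cataract, kept its direction and rose to 120 ± 3.25 FPKM against 51.0 ± 1.79 FPKM (1.21 ± 0.11, adjusted p = 8.79e-08). Chaperone genes, whose products fold other proteins, gave 13 higher and 7 lower of 22 (8 and 9 under that scaling). Dnajb2 and Dnajb1, J-domain cochaperones, rose by 3.69 and 2.76, and Hspb1, the small heat shock protein HSP27, to 51.5, 47.1 and 23.9 FPKM against 2.93, 1.99 and 4.21 FPKM (3.33 ± 0.28, adjusted p = 4.67e-08), although it was at 0.250 FPKM at E14.5.

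Ion pumps and channels gave 7 higher, 8 lower and 3 not called of 18, near the background in both directions (4 and 10 with the crystallins left out of the scaling). Trpm3, a cation channel whose gene hosts the microRNA miR-204, rose to 811, 789 and 774 FPKM at E16.5, against 328, 253 and 239 FPKM at E10.5 (1.54 ± 0.16, adjusted p = 4.04e-07). Atp2b1, a calcium pump of the plasma membrane, fell to 19.1 FPKM against 85.3 FPKM (-2.11).

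Translation genes showed no direction that held under all scalings. Cytosolic ribosomal protein genes gave 44 higher, 2 lower and 35 not called of 81 as deposited, 6 higher and 35 lower with the crystallins left out of the scaling and 3 higher and 58 lower with quantile normalization. Translation factors gave 19 higher and none lower of 26 as deposited, 9 and 8 with the crystallins left out and 7 and 12 with quantile normalization. As a share of the summed FPKM, the ribosomal protein genes held 4.09% ± 0.243 at E16.5 and 6.80% ± 0.415 at E10.5 (SD, n = 3 each).

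Chromatin genes were called lower in 14, higher in 5 and neither in 6 of 25 (median -0.47); with the crystallins left out of the scaling, 22 were lower and 1 higher (median -0.94). The DNA methyltransferase gene Dnmt3b fell to 5.67, 5.06 and 6.50 FPKM at E16.5, against 59.6, 69.2 and 71.2 FPKM at E10.5 (-3.33 ± 0.14, adjusted p = 2.47e-11), while Dnmt3a rose to 233, 302 and 239 FPKM against 109, 134 and 132 FPKM (1.03 ± 0.12, adjusted p = 1.47e-06). Dnmt3a stood above Dnmt3b at both stages. Ezh2, the Polycomb methyltransferase of dividing cells, fell to 34.0 ± 2.87 FPKM against 169 ± 12.6 FPKM (-2.28 ± 0.13, adjusted p = 9.68e-10), and its relative Ezh1 rose to 21.7 ± 1.92 FPKM against 13.1 ± 2.04 FPKM (0.69 ± 0.16, adjusted p = 1.22e-03; 0.24 and not called with the crystallins left out of the scaling).

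Imprinted growth genes gave 8 higher, 7 lower and 3 not called of 18, near the background in both directions, and 4 higher and 10 lower with the crystallins left out of the scaling. Meg3, a maternally expressed long noncoding RNA, rose to 500, 578 and 472 FPKM at E16.5, against 99.2, 71.5 and 125 FPKM at E10.5 (2.41 ± 0.19, adjusted p = 2.69e-08). Its paternally expressed neighbour Dlk1 fell to 0.630, 0.450 and 0.350 FPKM, against 14.1, 11.4 and 85.2 FPKM (-4.10 ± 0.50, adjusted p = 3.02e-06), with E10.5 replicate 3 far above the other two and a log2 difference of -3.22 without it. Peg10 and Plagl1 fell by 3.81 ± 0.29 and 3.41 ± 0.29. Igf2 and H19 were abundant and not called, Igf2 at 1322 ± 123 FPKM against 1265 ± 169 FPKM.

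Of 41 other genes linked to cataract, 31 were called higher, 8 lower and 2 neither (median 1.28; 26 and 13 with the crystallins left out of the scaling). Beside those already given, Slc16a12, a transporter of the monocarboxylate family, stood at 104 FPKM against 3.003 FPKM (4.72), Sipa1l3 at 863 FPKM against 122 FPKM (2.81) and Nhs at 179 FPKM against 24.9 FPKM (2.79). The members that fell included Six6, a factor of the retina, and Col2a1, which fell to 10.8, 6.02 and 2.63 FPKM against 174, 209 and 249 FPKM (-4.96 ± 0.41, adjusted p = 4.17e-08).

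Among single genes that fell, Aldh1a3, which makes retinoic acid, was at 6.21, 4.50 and 0.460 FPKM at E16.5, against 463, 527 and 618 FPKM at E10.5 (-7.11 ± 0.46, adjusted p = 2.57e-09; -6.40 without E16.5 replicate 3). The retinoic acid binding proteins Crabp1 and Crabp2 fell by 6.72 ± 0.21 and 5.73 ± 0.18. Crym, named mu crystallin after its use in marsupial lenses, was at 0.213 ± 0.280 FPKM against 136 ± 13.8 FPKM (-6.83 ± 0.31, adjusted p = 6.23e-11), against the direction of the true crystallins.

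Surface ectoderm markers were called lower in 12, higher in 1 and neither in 2 of 15, and their sum was 220 to 278 FPKM at E16.5 against 692 to 832 FPKM at E10.5. Krt8 fell to 0.320, 0.340 and 0.110 FPKM, against 94.8, 98.3 and 134 FPKM (-6.44 ± 0.34, adjusted p = 3.04e-10), and Epcam to 0.530, 0.230 and 0 FPKM against 85.0, 84.2 and 98.0 FPKM (-6.19 ± 0.38, adjusted p = 1.46e-09). Trp63, Grhl2, Cldn7 and Krt14, the last under 1 FPKM at both stages, were listed at 0 in all 3 E16.5 libraries. Nearly all of the sum at E16.5 was Cdh1, which the lens epithelium makes as well. Esrp1, an epithelial splicing regulator, and Cldn6, a tight junction protein of early epithelia, fell by 5.63 ± 0.44 and 5.90 ± 0.59.

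Markers of neighbouring tissues moved with the same comparison, most of them lower at E16.5. Macrophage markers were lower in 13 of 13, with sums of 8.46 to 18.5 FPKM at E16.5 against 145 to 171 FPKM at E10.5, and endothelial markers lower in 11 of 12, with sums of 125 to 206 FPKM against 695 to 757 FPKM. Retina markers were lower in 7 and higher in 2 of 11 (37.7 to 44.5 FPKM against 1091 to 1297 FPKM, mostly Sfrp2). Periocular mesenchyme markers were lower in 10 of 11. Their sums were 185 to 250 FPKM at E16.5, mostly Pdgfra, against 417, 403 and 2862 FPKM in the E10.5 libraries, the last being replicate 3. Pigment cell markers were lower in 3 and higher in 1 of 5, with sums of 59.1 to 87.1 FPKM against 79.3 to 213 FPKM, which overlap. Their part in the differences of other genes was not tested.

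The E10.5 libraries were unequal in some of these. The mesenchyme collagen Col1a1 had 2.95, 0 and 1.78 FPKM at E16.5, against 13.3, 10.8 and 1273 FPKM at E10.5, so most of its E10.5 level came from replicate 3, and its log2 difference was -4.75 with that library and -2.55 without it. Liver markers summed to 14.8 to 20.2 FPKM at E16.5 against 555, 23.0 and 1046 FPKM at E10.5, and Afp had 0.190, 0 and 0.610 FPKM against 340, 6.91 and 625 FPKM (-6.58 ± 1.05, adjusted p = 4.49e-05), against a log2 difference of -5.82 without E10.5 replicate 1, -8.54 without replicate 2 and -5.39 without replicate 3. With E10.5 replicates 1 and 3 left out, a choice made after the data were seen, 4 in place of 6 of the 8 liver markers were called lower, 4669 genes were called higher and 4782 lower. Markers of neurons and of skeletal and cardiac muscle were near the floor at both stages, with sums of 10.35 to 12.03 FPKM against 23.2 to 35.2 FPKM for neurons and 23.9 to 27.9 FPKM against 6.87 to 14.9 FPKM for muscle. Most of the muscle sum at E16.5 came from the troponin gene Tnni1, at 21.25 FPKM against 1.78 FPKM.

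Globins, the mark of blood in the sample, changed type. Of 11 erythroid markers, 7 were called lower, 2 higher and 2 neither, and their sum was 349 to 675 FPKM at E16.5 against 2229 to 5108 FPKM at E10.5. The embryonic globins Hbb-y, Hbb-bh1 and Hba-x were the genes that fell the most of all: Hbb-y had 1.16, 1.80 and 2.63 FPKM at E16.5, against 1884, 875 and 811 FPKM at E10.5 (-8.62 ± 0.38, adjusted p = 3.97e-11), and Hbb-bh1 had 0.320, 0.560 and 0.530 FPKM against 1229, 611 and 591 FPKM (-9.03 ± 0.39, adjusted p = 3.75e-11). The adult globin Hbb-bs rose to 256, 188 and 341 FPKM, against 9.98, 4.31 and 2.87 FPKM (5.39 ± 0.33, adjusted p = 1.61e-09). Hba-a2 was not called, with 58.0 ± 22.1 FPKM against 51.7 ± 25.5 FPKM (0.20). The globin genes are close copies of each other, and their separate levels are uncertain.

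**Figure D3:**
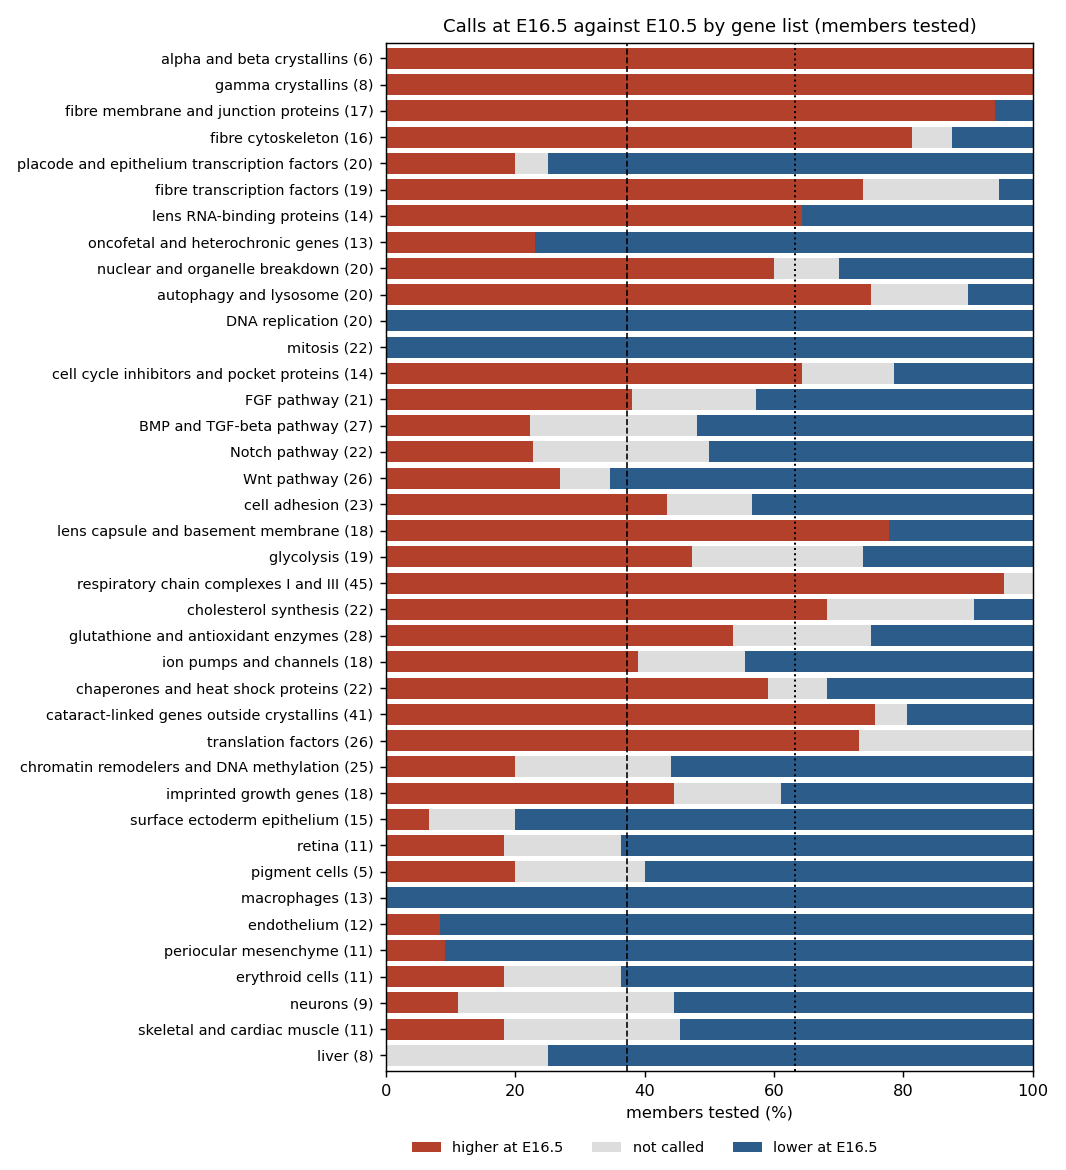
Share of the tested members of each of 39 gene lists (number tested in brackets) that were called higher at E16.5 (red), lower (blue) or neither (grey), in % of members. The dashed line marks the 37.2% of all genes called higher, counted from the left, and the dotted line the 36.7% called lower, counted from the right; crystallin, fibre and capsule lists pass the first, and replication, mitosis and macrophage lists are blue throughout.

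The stages between give the time of the change. Of the 2493 genes at least 2-fold higher at E16.5, 58.0% had passed the midpoint of their log2 difference by E12.5, 36.9% passed it between E12.5 and E14.5 and 5.13% after E14.5. Of the 2650 genes at least 2-fold lower, the shares were 44.2%, 54.4% and 1.36%. At E14.5, 19.2% of the higher and 36.2% of the lower genes lay beyond their E16.5 level. These shares describe means on 3 libraries each and rest on the same E10.5 and E16.5 values that chose the genes.

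Fibre genes ran from early to late. Maf and Prox1 had covered 67.2% and 76.5% of their log2 difference by E12.5, Hsf4 69.8%, Mip 78.6% and Crybb1 78.7%, while Bfsp1 had covered 43.7%, Cryab 47.9%, Crygf 44.3% and Dnase2b 4.85%. By E14.5 Dnase2b had covered 74.3%, at 55.6 FPKM. Wnt7a stood at 4.33 FPKM at E12.5, near its E10.5 level, and at 132 FPKM at E14.5. Of the genes that fell, Lin28b and Sfrp2 were slow, with 48.5% and 50.3% covered by E14.5, while Krt8, Epcam and Has2, a hyaluronan synthase, had covered 66.0%, 61.2% and 80.2% by E12.5. Hbb-y was higher at E12.5 (3106 FPKM) than at E10.5 and fell after that.

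**Figure D4:**
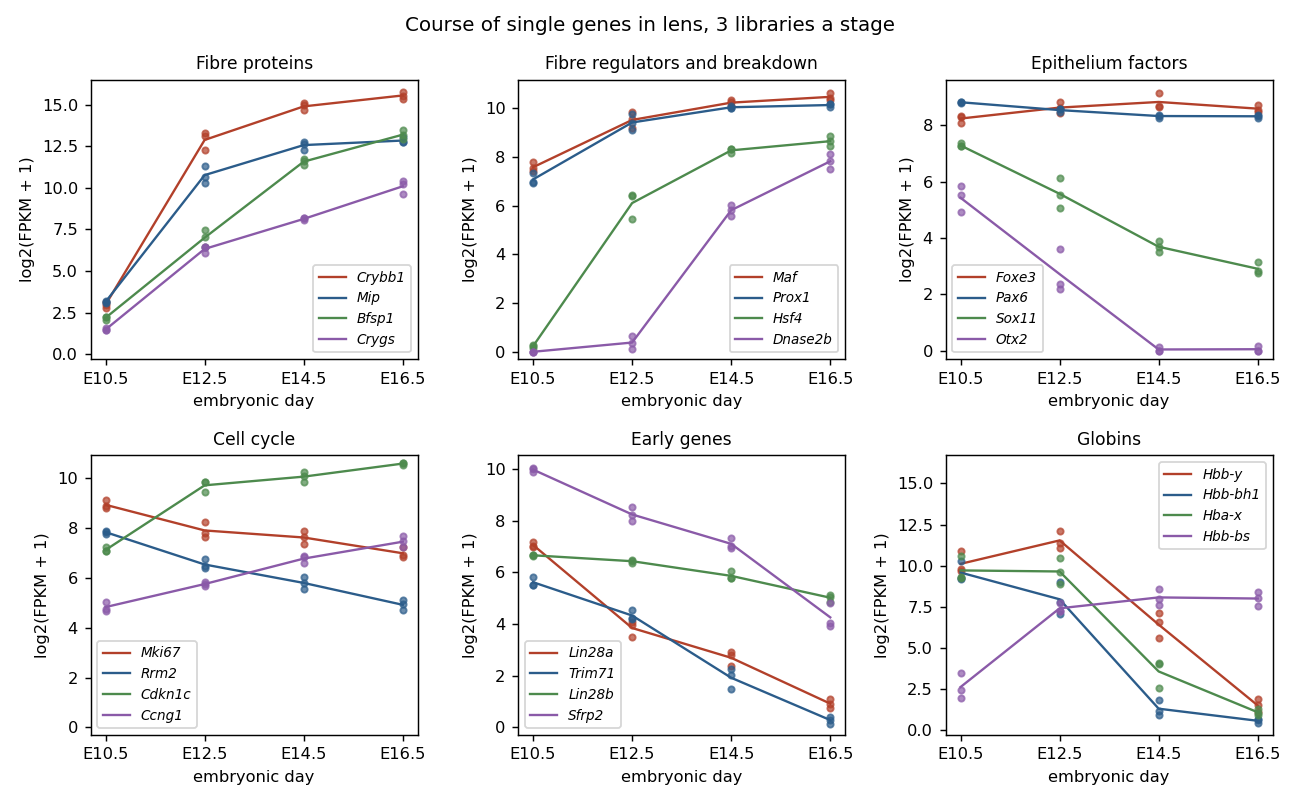
Levels of 24 genes in 6 panels over 4 lens stages, as log2(FPKM + 1) (vertical axes), with points for the 3 libraries of a stage and lines through their means. Crybb1 and Mip are high by E12.5 while Dnase2b starts after it, Foxe3 and Pax6 change little, Lin28a and Trim71 fall throughout, and embryonic globins give way to Hbb-bs.

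Genes with large rises were also described by their whole body levels and by their promoter windows. In whole bodies, 40.4% of the genes at least 16-fold higher at E16.5 were below 1 FPKM, against 373 of the 2493 at least 2-fold higher, 5.47% of those at least 2-fold lower and 5.23% of all genes tested. A gene below 1 FPKM in all whole body libraries could be tested only if lens libraries reached that level. The whole body contrast is therefore partly set by the filter. A promoter window was found for 174 of the 235 genes at least 16-fold higher and for 10351 of all genes tested. The 174 windows held a median of 12.5 CG dinucleotides, against 20 for genes at least 2-fold higher, 19 for those at least 2-fold lower and 21 for all. At most 5 CG dinucleotides were found in 28.7%, 12.4%, 13.0% and 9.20% of these windows, and in 46.2% of the 13 crystallin windows, whose median was 6. The 65 windows of genes at least 16-fold lower also lay under the median of all, with a median of 14 and 16.9% at 5 or fewer. These are descriptions of overlapping groups, and no test was made.

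The MAF motif TGCTGAC, searched on both strands, was in 8.05% of the windows of genes at least 16-fold higher, in 4.87% of those at least 2-fold higher, in 3.23% of those at least 2-fold lower and in 3.55% of all windows. It was found in 3 of the 13 crystallin windows, those of Crybb1, Cryba4 and Cryga. TATAAA between 45 and 15 bases before the start was in 4.02% of the first group and in 1.26% of all windows, and in the windows of Crybb1 and Crygs. The heat shock element core GAANNTTC, searched on both strands, was in 8.05% against 5.47% and in none of the crystallin windows. A match is a run of letters and not evidence of binding.

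**Figure D5:**
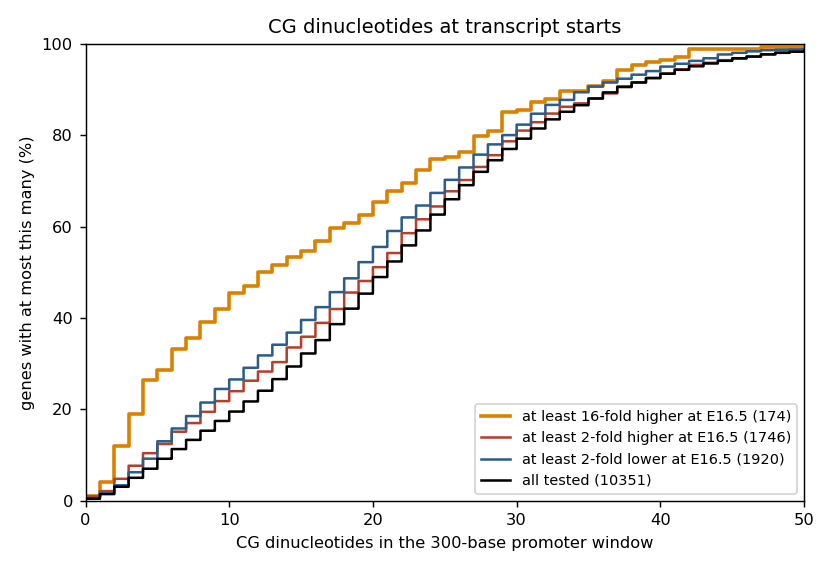
Cumulative share of genes (vertical axis, %) with at most a given number of CG dinucleotides in the 300-base window at the transcript start (horizontal axis). The curve of the 174 genes at least 16-fold higher at E16.5 (orange) runs above, over most of the range, those of genes at least 2-fold higher (red), at least 2-fold lower (blue) and all 10351 tested (black), with 28.7% of its genes at 5 or fewer against 9.20% of all.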

How the data were processed

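RNA from 4 lens stages and whole bodies, 3 libraries each, was sequenced. Per the submitters' processing notes, reads were trimmed with Trimmomatic, mapped to mm10 with TopHat2 2.0.9, assembled with Cufflinks and normalized with Cuffnorm. The authors deposited FPKM per transcript. Whether strand was used is not given in the sources used here. Counts and depth are unknown, since low FPKM values gave no whole-read steps, so no counting error can be given.

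FPKM of the 48306 transcripts were summed per gene symbol without 172 antisense (class code x) transcripts. Genes reaching 1 FPKM in 3 or more libraries were kept, and 3 genes listed at 0 beside a replicate of at least 50 FPKM were left out. limma 3.58.1 (R 4.3.3) was fitted to log2(FPKM + 1) of all 15 libraries, 1 mean per group, with a trended prior and Benjamini-Hochberg adjustment. The share of crystallins was tested with an exact permutation test. Code was tested on simulated data. Tables and figures used Python 3.11.15, pandas 2.3.3 and matplotlib 3.10.9. Coordinates are mm10 (GENCODE annotation), promoters RefSeq GRCm38.p6.

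Members and lists were chosen with earlier results of these data known. Named genes were the 20 strongest each way with at least 10 FPKM in the higher stage and no overlap of libraries, up to 3 at either end of each list, a fixed set of lens genes, the 10 highest at each stage and the 10 largest FPKM differences. Other list members named were chosen with their values seen. Alternatives were other scalings, pseudocount 0.1, no filter, other sets of libraries or transcripts, an untrended prior, a 2-fold minimum test, a replicate block and each library left out.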

Additional observations from a re-analysis of the deposited data

How the results depend on the processing

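Of 230 named genes that were called, 203 were called with every one of 18 alternatives. With the crystallins left out of the scaling, 3431 genes were higher and 1591 by 2-fold. Under that scaling the log2 differences of Hmx1 (-0.0938), E2f5 (-0.148), Ndufa12 (-0.27), Foxe3 (-0.13), Hspa8 (-0.0149) and Hsp90ab1 (-0.0596) changed sign. Quantile normalization turned Ndufa12 (-0.0458), Foxe3 (-0.21), Hspa8 (-1.80), Hsp90ab1 (-2.21) and mt-Cytb (-1.81); the cause was not tested. Testing for a 2-fold minimum left 1696 lower genes, as that test asks for more than the estimate.

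Of 106 counts over lists and families, 31 moved by over 1.5 times with the crystallins left out of the scaling, 26 with quantile normalization and 12 without E10.5 replicates 1 and 3. Leaving out each library in turn gave 5119 to 5277 higher and 4998 to 5239 lower genes, 2413 to 2558 and 2584 to 2710 by 2-fold, and a crystallin share difference of 29.2 to 33.8 percentage points. The labels do not say whether same-numbered libraries of different stages share a litter or day. Deviations of same-numbered libraries correlated by 0.0346, 0.0107 and 0.0241, small values, although each was highest with its own number. With the replicate number as a block, 5393 genes were higher and 5326 lower. With no counts, the precision of low FPKM values cannot be given.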

Other observations

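Histone genes of the clustered families, close copies of each other whose separate levels are uncertain, were called higher at E16.5 in 12 and lower in 3 of 15, with a median log2 difference of 2.96. Their summed level was 505 to 529 FPKM at E16.5, against 69.7 to 70.8 FPKM at E10.5, while all 20 DNA replication genes fell. Hist1h2bc stood at 100.4 FPKM against 5.01 FPKM (log2 difference 4.08), Hist1h1c, a linker histone, at 109 FPKM against 7.59 FPKM (3.67) and Hist3h2a at 103 FPKM against 10.7 FPKM (3.16).

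Nuclear pore genes were called lower in 12, higher in 2 and neither in 5 of 19 (median -0.75), and lower in 17 with the crystallins left out of the scaling. Hox genes, which pattern the trunk, were nearly silent: 33 of 37 were listed at 0 in all 3 E16.5 libraries, 2 were called lower and none higher. Genes encoded by mitochondrial DNA held 1.89% ± 0.222 of the summed FPKM at E16.5 and 2.65% ± 0.8999 at E10.5 (SD, n = 3 each), a difference within the spread of the E10.5 libraries. Crystallins held 32.0% of the E16.5 total against 0.0542% at E10.5, so a lower share need not be a lower level.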
